A study of Mus musculus with 6 samples.

Results

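The nuclear genes for respiratory complexes III and IV, for the ATP synthase and for cytochrome c were followed in MCEC, an established line of mouse cardiac endothelial origin. Members were the protein-coding rows of the deposited table named Cyc1 or Cycs, or with a symbol starting with Uqcr, Atp5, Cox4i, Cox5, Cox6, Cox7 or Cox8. This gave 47 genes among 78409 rows, made up of 9 genes of complex III, 19 of complex IV, 18 of the ATP synthase and 1 for cytochrome c. For Atp5po, whose symbol stood on more than 1 row, the row with most counts was taken. RNA had been sequenced from 3 wild-type control libraries and from 3 libraries of MCEC carrying a short hairpin RNA against Fat4 (the Fat4 knockdown). Fat4 encodes a giant atypical cadherin. The promoter of the hairpin, whether the knockdown line is 1 clone and whether the controls carried a hairpin of their own are not given in the labels, nor are separate cultures for the replicates. Every p-value therefore refers to the variation among these 6 libraries, and that variation could be technical.

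Complexes III and IV are proton pumps of the inner mitochondrial membrane. Complex III passes electrons from ubiquinol to cytochrome c, and complex IV passes them from cytochrome c to oxygen. The ATP synthase lets protons flow back through a rotating ring of c subunits, and the turning of its central stalk drives ATP formation in the catalytic head. Each of these complexes joins a few subunits encoded by mitochondrial DNA to many encoded in the nucleus, which are made in the cytosol and imported. Endothelial cells are known for drawing much of their ATP from glycolysis, but endothelial markers were scarce in these libraries, as given below.

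In the Fat4 knockdown, 19 of the 41 members that could be tested rose and none fell, and the rises were small, between 1.14-fold and 1.49-fold. They were spread over all the complexes, with 3 of 9 tested genes in complex III, 8 of 13 in complex IV, 7 of 18 in the ATP synthase, and Cycs. Over all 13372 genes tested, 8.94% were called higher and 8.44% lower. The median log2 fold change was 0.22 over the tested members and -0.01 over all genes tested. Of the 19 calls, 5 held in every fit that left out 1 library. After correction for GC content and length 12 of them held, and after correction for coding length 7. The 8 calls in complex IV include Cox5b-ps, which may share reads with Cox5b. In complex III the rises were among the accessory subunits and not the core ones, and in the ATP synthase the 2 genes of the catalytic head lay near 0. The head genes and 3 of the 4 core genes have the longest coding sequences among the members tested, and short genes were higher across the whole table. A gene was called at a Benjamini-Hochberg adjusted p under 0.05 in edgeR's quasi-likelihood test over all genes, and levels are given as CPM, the number of counts scaled to a common library size, on TMM-scaled library sizes.

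Total counts ran from 10305810 to 11870091 per library, and the members took 1.05% to 1.18% of them in control and 1.24% to 1.27% in knockdown libraries. Fat4 was scarce, at 0.97, 1.94 and 2.56 CPM in control and 0.76, 0.98 and 0.82 CPM in knockdown libraries (log2 fold change -1.17, SE 0.35, adjusted p = 0.033). The Fat4 level of the library labelled control replicate 1 lay within the knockdown range, so the targeted gene does not set this library apart from the knockdown. That library was also the highest of the controls for 31 of the 41 tested members, and control replicate 3 was the lowest for 32. Of 10 endothelial markers, Tie1, Erg, Vwf, Cldn5 and Emcn had no count in any library, and the 10 together reached 2.97 to 3.28 CPM in control and 2.28 to 3.24 CPM in knockdown libraries. The 6 mesothelial markers together reached 1649 to 1745 CPM in the controls and 1463 to 1511 CPM in the knockdown, and 3 of them (Upk3b, Wt1 and Lrrn4) were lower. Cardiomyocyte markers (0.73 to 2.57 CPM summed), leukocyte markers (3.44 to 4.66 CPM) and skeletal muscle markers (2.78 to 3.59 CPM) were low in all 6 libraries, with Myh6, Myh7, Ryr2, Pln, Nppa, Myl2, Adgre1, Ckm, Myh1 and Myh2 at 0. The part that a change in the makeup of the cultures plays in the results was not tested, and in bulk RNA fewer cells of a type and less RNA per cell cannot be told apart.

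Genes for respiratory subunits are known for promoters that bind NRF1, ETS factors such as GABP, and YY1. Promoter windows from 250 bases before to 50 after the annotated start were matched by symbol in RefSeq (GRCm38.p6, an earlier build than that of the counts) for 34 of the 47 members. The words GCGCATGCG or GCGCACGCG (NRF1), CCGGAAG (ETS) and AAGATGGCG (YY1) were searched on both strands. At least 1 of them stood in the windows of 16 of 34 members (47.1%), against 14.1% of the 27025 genes of the RefSeq table. That table was not limited to genes expressed in these cells, and no share over the tested genes alone was taken. By word, the NRF1 words were held by 26.5% of members and 3.80% of all genes, the ETS word by 29.4% and 9.93%, and the YY1 word by 5.88% and 1.64%. A word of any kind was held by 8 of 14 matched members that rose and by 8 of 17 that were tested and not called, so both kinds of member are shown. The 80-base stretches shown end at or before the start, run 5′ to 3′ on the gene's strand, and have the NRF1 and ETS words in capitals. Overlapping NRF1 words of both strands merge to 1 run. Atp5f1c (chr2:10080433-10080512, minus strand), Cycs (chr6:50566571-50566650, minus), Atp5mg (chr9:44920913-44920992, minus) and Uqcrh (chr4:116075071-116075150, minus) rose, while Atp5me (chr5:108434400-108434479, minus) and Cox6a1 (chr5:115349061-115349140, minus) were not called. These 6 were chosen after their values were seen, and a match is a word in a sequence, not a shown binding site.
Atp5f1c: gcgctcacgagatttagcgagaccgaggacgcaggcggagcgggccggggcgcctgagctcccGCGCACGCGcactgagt
Cycs: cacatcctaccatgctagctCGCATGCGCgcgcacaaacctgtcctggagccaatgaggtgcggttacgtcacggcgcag
Atp5mg: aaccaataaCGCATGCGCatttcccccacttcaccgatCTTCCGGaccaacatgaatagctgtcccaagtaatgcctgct
Uqcrh: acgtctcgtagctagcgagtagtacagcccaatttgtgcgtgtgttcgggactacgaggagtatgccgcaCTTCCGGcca
Atp5me: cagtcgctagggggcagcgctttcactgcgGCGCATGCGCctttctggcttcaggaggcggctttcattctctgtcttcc
Cox6a1: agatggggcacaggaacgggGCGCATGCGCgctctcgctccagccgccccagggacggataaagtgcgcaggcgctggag

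In complex III, the accessory subunits Uqcrh, Uqcrq and Uqcrb rose, and none of the 4 core genes did (Cyc1, Uqcrfs1, Uqcrc1 and Uqcrc2). Uqcrh (ENSMUSG00000063882, GRCm39 chromosome 4, 115924162 to 115932268) encodes the hinge protein, which sits beside cytochrome c1. It was measured at 221, 193 and 157 CPM in control libraries and at 283, 305 and 261 CPM in knockdown ones. Every knockdown library lay above every control library, and the log2 fold change was 0.57 (SE 0.11, adjusted p = 0.0073), the highest among the called members. Uqcrq, a small accessory subunit, stood at 300, 270 and 249 CPM in the controls and 369, 319 and 314 CPM in the knockdown, also without overlap (log2 fold change 0.29, SE 0.08, adjusted p = 0.015). Uqcrb, long known as a ubiquinone-binding protein, stood at 277, 247 and 234 CPM against 296, 280 and 298 CPM (log2 fold change 0.21, SE 0.06, adjusted p = 0.038). The groups of Uqcrb only just failed to overlap, at control replicate 1 and knockdown replicate 2.

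Uqcr10, the not-called gene of complex III with most counts, had a larger difference than Uqcrq but a wider spread among the controls. Its levels were 256, 187 and 162 CPM in control libraries and 276, 306 and 278 CPM in knockdown ones (log2 fold change 0.51, SE 0.17, adjusted p = 0.093). The groups did not overlap, and control replicate 1 stood well above the other controls. The last accessory gene, Uqcr11, had a log2 fold change of 0.14 (adjusted p = 0.18). Among the core genes, Cyc1, which encodes the haem protein cytochrome c1, had 197 ± 8.54 CPM for control and 198 ± 7.37 CPM for knockdown (SD, n = 3), with a log2 fold change of 0.00 and SE 0.06. Uqcrfs1, the Rieske iron-sulphur protein, had 0.11 (adjusted p = 0.26). The core proteins Uqcrc1 and Uqcrc2 had -0.05 (adjusted p = 0.63) and 0.14 (adjusted p = 0.15).

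Cycs (ENSMUSG00000063694, GRCm39 chromosome 6, 50539543 to 50543518) encodes cytochrome c, the mobile carrier between complexes III and IV that also triggers apoptosis once released into the cytosol. Its level was 277, 267 and 259 CPM in the controls and 321, 312 and 302 CPM in the knockdown. The groups did not overlap, and the log2 fold change was 0.22 (SE 0.06, adjusted p = 0.014). Without control replicate 2, control replicate 3, knockdown replicate 1 or knockdown replicate 2 the call was lost, with an adjusted p of up to 0.078.

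**Figure D1:**
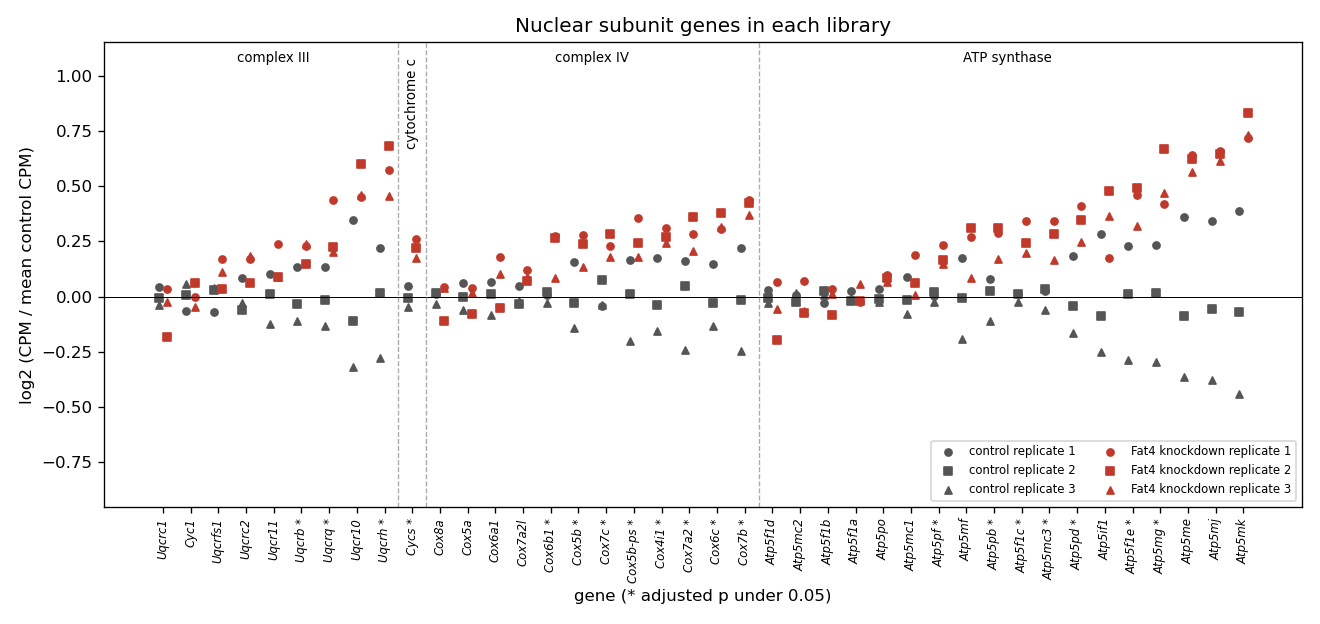
Level of 40 tested members in each library, as the log2 ratio of its CPM to the mean control CPM (vertical axis), grouped by complex and ordered by fold change, with circles, squares and triangles for replicates 1, 2 and 3. Grey points are control and red points knockdown libraries, and Cox7a1, at under 3 CPM, is left out. In the members with the largest differences, such as Atp5mk, control replicate 1 (grey circles) lies above and control replicate 3 (grey triangles) below the other controls, while all knockdown points lie higher.

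The complex IV members are nuclear genes by the rule, so the mitochondrially encoded catalytic core lies outside them. Of the 13 tested, 8 rose. Cox7b (ENSMUSG00000031231, GRCm39 chromosome X, 105059306 to 105066056), a small membrane-spanning subunit needed for assembly of the complex, was at 179, 152 and 130 CPM in control libraries and 208, 206 and 199 CPM in knockdown ones. The knockdown libraries were close to each other and all above the controls (log2 fold change 0.41, SE 0.09, adjusted p = 0.0089). Cox6c, another small membrane-spanning subunit, was at 294, 261 and 242 CPM against 329, 345 and 330 CPM (log2 fold change 0.33, SE 0.07, adjusted p = 0.0038). That was the lowest adjusted p among all members, and its groups did not overlap either.

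Cox7a2 is the form of subunit 7a found in most tissues. It was at 506, 467 and 382 CPM in the controls and 550, 581 and 521 CPM in the knockdown (log2 fold change 0.29, SE 0.09, adjusted p = 0.035). Cox4i1 encodes the common form of subunit 4, through which ATP inhibits the complex. It was at 507, 438 and 404 CPM against 556, 542 and 532 CPM (log2 fold change 0.27, SE 0.07, adjusted p = 0.016). In both genes the groups did not overlap and control replicate 1 came nearest to the knockdown. The remaining rises in complex IV were Cox7c (log2 fold change 0.23), Cox5b (0.22), Cox6b1 (0.21) and Cox5b-ps (0.26), with adjusted p between 0.013 and 0.043. Cox5b was the only called member whose groups overlapped, since control replicate 1 (236 CPM) was above knockdown replicate 3 (232 CPM).

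Cox5b-ps (ENSMUSG00000079941, GRCm39 chromosome 13, 21685120 to 21685616) carries a pseudogene symbol but is listed as protein-coding in the table. As a near copy of Cox5b it can share reads with it, so its rise is not separate from that of Cox5b. With the counts of copies named by symbol added to their parent genes, 18 members were called higher, Cox5b among them (log2 fold change 0.23, adjusted p = 0.038). Fractional counts, which reads with more than 1 possible origin can give, were found in 31 of the 47 members.

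For the subunits of complex IV with tissue-specific forms, nearly all RNA was that of the general form. Cox4i2, known as the hypoxia- and lung-linked form of subunit 4, had 1 count in control replicate 2 and none elsewhere. Cox6a2, the heart and muscle form of subunit 6a, had 1, 1 and 3 counts in control and 4, 2 and 4 in knockdown libraries, and per kilobase of exon it stood at 0.21 and 0.45 CPM against 682 and 721 CPM for Cox6a1. Cox6b2, the testis form of subunit 6b, had 1 count in each control library and 0, 0 and 1 in knockdown libraries. Cox7b2, Cox8b and Cox8c had no count in any library, which allows up to 3 counts, or 0.24 to 0.29 CPM, per library and covers counting error only. These 6 genes were too scarce to be tested.

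Of the heart and muscle forms only Cox7a1 was abundant enough for a test, at 2.43, 1.41 and 2.52 CPM in control and 1.25, 1.47 and 1.54 CPM in knockdown libraries. The groups overlapped through control replicate 2, and the difference was not called (log2 fold change -0.58, SE 0.27, adjusted p = 0.16). Per kilobase of exon, Cox7a1 stood at 3.96 and 2.66 CPM against 479 and 583 CPM for Cox7a2. The log2 fold changes of 4 abundant members of this complex lay near 0. Cox5a, the not-called gene of complex IV with most counts, was at 773, 740 and 711 CPM in control libraries and 761, 702 and 750 CPM in knockdown ones, and the groups overlapped fully (log2 fold change -0.01, SE 0.06, adjusted p = 0.95). Cox6a1, Cox8a and Cox7a2l, the last known as a factor that joins complexes III and IV in supercomplexes, had log2 fold changes of 0.08, -0.01 and 0.09 (adjusted p from 0.30 to 0.95).

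In the ATP synthase, rises were found in the stalks, in the c-ring and in a small subunit of the membrane domain, and the log2 fold changes of the catalytic head lay near 0. The head genes Atp5f1a and Atp5f1b encode the alpha and beta subunits, and beta carries the catalytic sites. Atp5f1b, the not-called gene of the ATP synthase with most counts, was at 516, 536 and 530 CPM in the controls and 541, 498 and 532 CPM in the knockdown (log2 fold change -0.01, SE 0.06, adjusted p = 0.92). Atp5f1a was at 405 ± 6.06 CPM and 406 ± 13.0 CPM (SD, n = 3, log2 fold change 0.00, SE 0.05). For these abundant genes the groups overlapped fully.

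The central stalk turns inside the head. Its gamma subunit, Atp5f1c (ENSMUSG00000025781, GRCm39 chromosome 2, 10060827 to 10085321), was at 372, 371 and 362 CPM in control libraries and 466, 436 and 423 CPM in knockdown ones. The controls lay close together, all knockdown libraries lay above them, and the log2 fold change was 0.26 (SE 0.06, adjusted p = 0.0056). The epsilon subunit, Atp5f1e, was at 350, 301 and 245 CPM against 411, 421 and 373 CPM, without overlap (log2 fold change 0.43, SE 0.11, adjusted p = 0.026). The third stalk gene, Atp5f1d, which encodes delta, was not called (-0.06, adjusted p = 0.59).

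The peripheral stalk holds the head still against the turning rotor. Of its 4 genes, Atp5pd, Atp5pb and Atp5pf rose. Atp5pd, its subunit d, was at 282, 240 and 221 CPM in the controls and 329, 315 and 294 CPM in the knockdown, with no overlap (log2 fold change 0.34, SE 0.08, adjusted p = 0.0094). Atp5pb and Atp5pf had log2 fold changes of 0.26 (adjusted p = 0.011) and 0.18 (adjusted p = 0.030), the latter the smallest among the called members. Atp5po, which confers oligomycin sensitivity, was not called (log2 fold change 0.08, adjusted p = 0.31), although its groups did not overlap.

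Subunit c of the rotor ring is encoded by 3 genes whose mature proteins are known to be identical. Atp5mc3 was at 750, 753 and 705 CPM in control libraries and 934, 897 and 825 CPM in knockdown ones, all knockdown libraries being higher (log2 fold change 0.27, SE 0.06, adjusted p = 0.0081). Atp5mc1 was at 302, 281 and 269 CPM against 323, 296 and 286 CPM, with overlap (log2 fold change 0.09, adjusted p = 0.37). Atp5mc2 was at 131, 128 and 131 CPM against 136, 124 and 124 CPM, with overlap (log2 fold change -0.02, adjusted p = 0.85). Of the 3 genes only Atp5mc3 was called. Per kilobase of exon, Atp5mc3 was the highest in both groups at 338 and 406 CPM, against 57.8 and 61.5 CPM for Atp5mc1 and 77.6 and 76.4 CPM for Atp5mc2. The difference between the fold changes of these 3 genes was not tested.

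The largest differences of any member lay in the small subunits of the membrane domain, where enzymes pair into dimers and bend the crista membrane, and most of them missed the threshold. Atp5mg (ENSMUSG00000038717, GRCm39 chromosome 9, 44823855 to 44832040), subunit g, was the one called, at 131, 112 and 90.8 CPM in the controls and 149, 177 and 154 CPM in the knockdown (log2 fold change 0.52, SE 0.12, adjusted p = 0.015). Knockdown libraries were all above the controls. Atp5mk, Atp5mj and Atp5me were singled out after their values were seen. Atp5mk was at 303, 221 and 171 CPM in control libraries and 381, 412 and 384 CPM in knockdown ones (log2 fold change 0.76, SE 0.22, adjusted p = 0.081). Atp5mj was at 203, 154 and 123 CPM against 253, 250 and 245 CPM (log2 fold change 0.64, SE 0.17, adjusted p = 0.052).

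Atp5me, subunit e, was at 271, 199 and 164 CPM against 329, 324 and 312 CPM (log2 fold change 0.61, SE 0.18, adjusted p = 0.070). In Atp5mk, Atp5mj and Atp5me the groups did not overlap, the knockdown libraries were close together, and the controls were far apart with replicate 1 highest and replicate 3 lowest. The threshold was passed by all of them with DESeq2 (adjusted p = 0.017, 0.022 and 0.038) and with limma-voom (0.0027, 0.0036 and 0.0044). Each was called in only 2 of the 6 fits that leave out 1 library, those without control replicate 1 or 3, with adjusted p of up to 0.20, 0.14 and 0.17 in the others. Atp5mk was also not called after correction for GC content and length (adjusted p = 0.10) or for coding length (0.079). Atp5me was called after the former (0.023) but not the latter (0.069), and Atp5mj after both (0.041 and 0.043). Atp5mf, subunit f, had a log2 fold change of 0.22 (adjusted p = 0.086) with groups that overlapped. Atp5if1, the inhibitor that blocks ATP hydrolysis when the proton gradient fails, was at 120, 92.6 and 82.8 CPM in the controls and 111, 137 and 127 CPM in the knockdown. Its groups overlapped through control replicate 1, and it was not called (log2 fold change 0.35, SE 0.13, adjusted p = 0.10).

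Groups that did not overlap, with the knockdown higher, were found in 24 of the 41 tested members and in 17.4% of all genes tested. No member had the opposite separation. Of these 24, 18 were called, and the other 6 were Uqcr10, Cox7a2l, Atp5po, Atp5me, Atp5mj and Atp5mk. Summed over its genes, complex III reached 1539 ± 131 CPM for control and 1843 ± 50.2 CPM for knockdown (SD, n = 3), a ratio of 1.20. The ATP synthase sums were 5283 ± 404 and 6290 ± 203 CPM, a ratio of 1.19, and those of complex IV were 3871 ± 261 and 4342 ± 99.4 CPM, a ratio of 1.12. Cytochrome c had a ratio of 1.16. In every complex the lowest knockdown sum was above the highest control sum, and these sums were given no test.

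**Figure D2:**
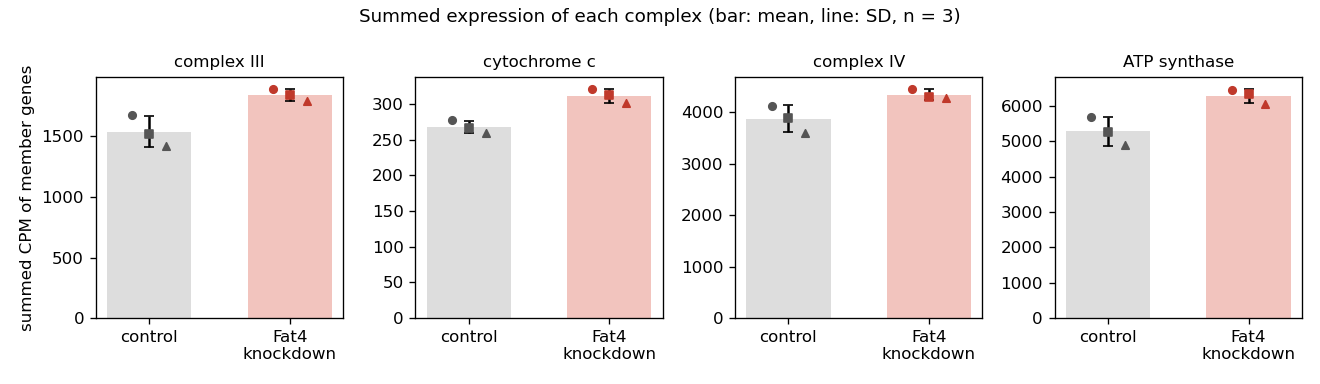
Summed CPM of the members of each complex (vertical axes, each starting at 0) in control and knockdown libraries. Bars are means, lines are SD (n = 3) and points are libraries, with circles, squares and triangles for replicates 1, 2 and 3. The knockdown means exceed the control means by 1.12 times for complex IV to 1.20 times for complex III.

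How many members were called depended strongly on single libraries. Leaving out control replicate 1, the library whose Fat4 level lay within the knockdown range, gave 27 members higher, when 11.9% of all genes were. Leaving out control replicate 2 gave 6 members higher, when 3.87% of all genes were. Without control replicate 3 there were 12 (4.62% of all genes), without knockdown replicate 1 there were 8 (4.49%), without knockdown replicate 2 there were 8 (4.1%), and without knockdown replicate 3 there were 19 (7.33%). No member was called lower in any of these fits. Atp5f1c, Atp5mc3, Uqcrh, Cox6c and Cox7b were called in all 6. Atp5mg lost its call only without control replicate 2 (adjusted p = 0.053), and Cox7c only without knockdown replicate 2 (adjusted p = 0.073). The other 12 called members lost theirs in 2 or more of the fits, with adjusted p of up to 0.20 for Cox5b, and Uqcrb was called in 1 of the 6. By library, 13 of the 19 calls were lost without control replicate 2, 10 without control replicate 3, 11 each without knockdown replicates 1 and 2, 1 without knockdown replicate 3 and 0 without control replicate 1.

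The fold changes of the members followed coding length. Across the 41 tested members, Spearman's rho between coding length and log2 fold change was -0.56, and across 10921 tested genes with a coding length it was -0.34. These are correlations across genes of the same 6 libraries, so the points share library and depth and are not independent. The 16 members with coding sequences of up to 300 bases had a median log2 fold change of 0.31 and 8 were called higher, while 36.7% of the 218 other genes of that size were, with a median of 0.18. Between 300 and 900 bases, 11 of 20 members and 18.5% of 2717 other genes were called higher, with medians of 0.21 and 0.07. Of the 5 members from 900 bases up (Atp5f1a, Atp5f1b, Uqcrc1, Uqcrc2 and Cyc1) none was called, and their median was 0.00, against -0.06 and 3.60% called higher among 7945 other genes. The genes of the catalytic head and 3 of the 4 of the complex III core were thus the longest members, and role and length cannot be told apart here. Genes of cytosolic ribosomal proteins, also short and highly expressed, were higher in 51 of 83 cases with a median of 0.25, against 8.94% of all genes tested. After the GC and length correction 42 of them were called higher, at a median of 0.19, and 7.55% of all genes. After the coding length correction it was 32, at a median of 0.16, and 8.24% of all genes.

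**Figure D3:**
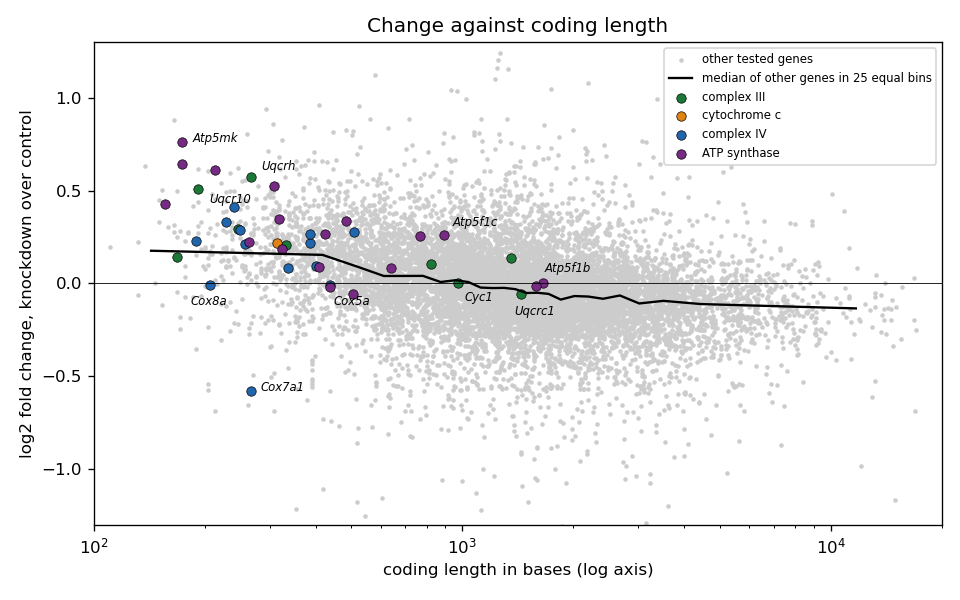
Log2 fold change of knockdown over control (vertical axis) against coding length in bases (horizontal log axis) for the tested members, coloured by complex, and for other tested genes in grey; genes beyond the axis range are not drawn. The black line, the median of other genes in equal-sized bins of length, slopes downwards, and the short members lie mostly above it while Atp5f1b, Cyc1 and Uqcrc1 lie near 0.

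After 2 corrections for such trends, 15 and 8 members were called higher. With smooth per-library trends on GC content and exon length as offsets, 15 members and 7.55% of all genes were called higher, and the members' median log2 fold change was 0.14. Of the 19 called members 12 kept their call, and Uqcr10, Atp5me and Atp5mj joined them. The losses were Cycs, Uqcrb and 5 genes of complex IV (Cox7a2, Cox7c, Cox5b, Cox5b-ps and Cox6b1), which left 3 of 13 in complex IV but 9 of 18 in the ATP synthase. With a trend on coding length alone, chosen after seeing the data, 8 members and 8.24% of all genes were called higher, at a median of 0.09. These were Uqcrh (log2 fold change 0.40), Cox7b (0.22), Cox4i1 (0.19), Atp5mg (0.37), Atp5pd (0.24), Atp5f1c (0.26), Atp5pb (0.23) and Atp5mj (0.43). Under that correction Cox8a was called lower (log2 fold change -0.22, adjusted p = 0.021). Uqcrh, Cox7b and Atp5f1c were called under both corrections and without any 1 library.

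**Figure D4:**
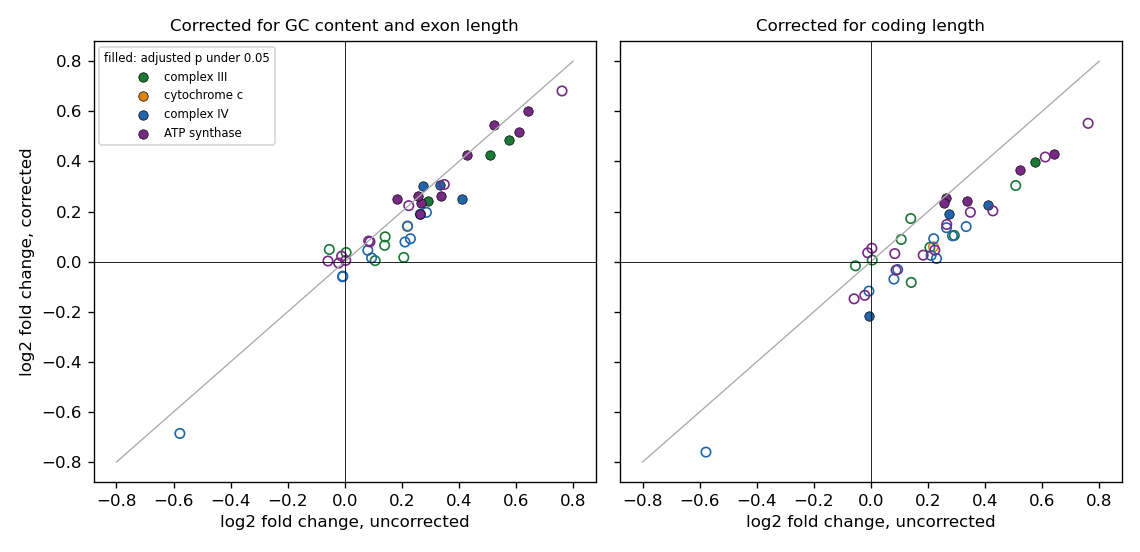
Log2 fold change of each tested member before (horizontal axes) and after (vertical axes) correction for GC content and exon length (left) or for coding length (right), coloured by complex, with filled points where the adjusted p after correction was under 0.05 and a grey line of equality. Points lie below the line for 31 of the 41 members on the left and for 36 on the right, where 8 members are called higher (7 of them also before correction) and 1, Cox8a, lower.

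Of the 6 mitochondrially encoded subunits of the same complexes, none was called higher and mt-Co1 fell. Over all genes tested, 8.94% were called higher and 8.44% lower, and 6 genes are too few to set against those shares. mt-Co1, the catalytic subunit of complex IV, was at 1976, 1949 and 1954 CPM in control libraries and 1624, 1802 and 1642 CPM in knockdown ones. All knockdown libraries were lower (log2 fold change -0.21, SE 0.06, adjusted p = 0.018), and the call was lost without control replicate 2, knockdown replicate 1 or knockdown replicate 3 (adjusted p of up to 0.087). The other core subunits of complex IV, mt-Co2 and mt-Co3, had log2 fold changes of 0.03 (adjusted p = 0.81) and 0.13 (adjusted p = 0.13). Cytochrome b of complex III (mt-Cytb) had -0.07 (adjusted p = 0.43), and the ATP synthase subunits mt-Atp6 and mt-Atp8 had 0.13 (adjusted p = 0.16) and -0.01 (adjusted p = 0.96). These values depended on the GC and length correction, after which mt-Cytb was also called lower (log2 fold change -0.26, adjusted p = 0.014). mt-Co1 then had -0.37, and mt-Co2, mt-Co3 and mt-Atp6 turned to -0.22, -0.09 and -0.09. The median of the 6 was then -0.23, against 0.01 before, and 723 of 13372 genes were called lower. After the coding length correction the median was -0.04 and 1 of the 6 was called lower. mt-Cytb was then not called (-0.05, adjusted p = 0.54), and 828 of all genes were called lower. The difference between nuclear and mitochondrial genes was not tested, and the labels do not say how the library preparation captures mitochondrial transcripts.

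Among assembly factors of these complexes, all genes called without correction were higher. Over all genes tested, 8.94% were called higher. In complex III assembly, 3 of 9 tested genes rose and none fell, with log2 fold changes of 0.50 for Uqcc2, 0.26 for Uqcc1 and 0.22 for Uqcc4. Uqcc2, which helps to make cytochrome b, was at 219, 190 and 163 CPM in the controls and 280, 280 and 250 CPM in the knockdown (adjusted p = 0.0030). In complex IV assembly and copper delivery, 6 of 26 rose and none fell, led by Coa4 (0.81), Cox16 (0.42) and Coa6 (0.30). Coa4 was at 5.05, 4.33 and 4.80 CPM in control and 8.21, 8.82 and 7.80 CPM in knockdown libraries (SE 0.13, adjusted p = 0.0011). In ATP synthase assembly 2 of 6 rose, Fmc1 (0.37) and Tmem70 (0.24), which helps to build the c-ring. The medians of these lists were 0.16, 0.18 and 0.08, with -0.01 over all genes tested. After the coding length correction 2, 3 and 1 of their genes were called higher, at medians of 0.10, 0.03 and 0.02. Under that correction 1 gene of complex IV assembly was called lower. Ndufa4, a complex IV subunit under a complex I symbol, rose (log2 fold change 0.33, adjusted p = 0.0070), as did Higd1a (0.28), a small hypoxia-inducible protein of the inner membrane, among 4 tested genes of their list. In this list 2 genes were called higher after the GC and length correction and 0 after the coding length correction. Its median was 0.17 without correction and 0.03 after the coding length correction.

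Calls in lists for neighbouring steps ranged from none to 5 of 12, and differences between lists were not tested. Of all genes tested 8.94% were called higher, and lists with 1 call of 8 or of 17 genes lie near that share. Among genes for crista shape (MICOS, OPA1 and prohibitins), 5 of 12 rose and none fell, including Apoo (0.51), Micos10 (0.39) and Micos13 (0.35). In complex II and its assembly factors only Sdhaf3 (0.64) was called, of 8 tested. No call was made among 16 enzymes of the tricarboxylic acid cycle (median 0.01), 14 electron carriers and quinone synthesis genes (0.05), or 7 nucleotide, phosphate and outer membrane carriers (0.05). Among 17 tested regulators of mitochondrial biogenesis only Tefm, a mitochondrial transcription elongation factor, rose (0.55, adjusted p = 0.020), at a list median of -0.06. The factors whose words were searched in the promoters included Nrf1 (log2 fold change -0.11, adjusted p = 0.31) and Gabpa (-0.06, adjusted p = 0.66). Neither was called, nor was any other tested regulator of the list but Tefm. The RNA level of a factor does not give its activity, and a part of these factors in the rises was not tested. Of the context genes named here as risen, Uqcc2, Coa4, Sdhaf3 and Micos10 were called in all 6 fits that leave out 1 library, and each other one lost its call in at least 1 of them.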

How the data were processed

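The 6 RNA libraries (3 control, 3 Fat4 knockdown) were grouped by the labels. The authors' deposited table holds estimated counts per gene on GRCm39 (29.0% of nonzero values not whole) and deposited CPM values, which equal counts over the library total. The submitters' processing notes name the aligner STAR 2.7.11, the read trimmer fastp 0.24.0, SAMtools 1.22.1, MultiQC 1.32 and FastQC 0.12.1. The read counter, its strand setting and its treatment of shared reads are not given in these sources. Of the table's 92 spike-in rows, 1 held any count, and all were left out. Every column of values was mapped to a sample by its name.

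Counts were rounded, filtered with filterByExpr, scaled by TMM and tested with edgeR 4.0.16 in R 4.3.3 (glmQLFit with robust estimation, glmQLFTest, no block, adjusted p threshold 0.05). Each SE was obtained as the log2 fold change over the root of F, and CPM values are on the TMM-scaled sizes. The biological coefficient of variation was 6.31%. The scripts were tested on simulated counts. No 2 libraries of a group agreed within sampling noise. GC content and coding length came from a GRCm38 annotation by gene identifier and were found for all 47 members. Trends were fitted with mgcv 1.9.3.

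Genes named with values were, in each complex, up to 4 called members with the largest fold change and the not-called member with most counts, then isoform groups, Atp5if1, Cycs, mitochondrial partners and up to 3 called genes of each context list. Atp5f1c, Atp5mk, Atp5mj, Atp5me and the remaining members lie outside this rule and were named after their values were seen. The members and lists were chosen with earlier results of these data known. Alternatives were scaling by RLE, upper quartile, library size alone or sizes free of mitochondrial and ribosomal protein counts, the tools limma-voom 3.58.1 and DESeq2 1.42.0, 2 filters, a replicate block, trend corrections, rounding down, protein-coding rows, summed repeated symbols and each library left out. Adding copies to their parents, the coding-length trend and no robust estimation were chosen after seeing the data.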

Additional observations from a re-analysis of the deposited data

How the results depend on the processing

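No member was called lower under any setting except the coding length correction, which called 1 lower and 8 higher (0 for cytochrome c, 1 in complex III, 2 in complex IV). The GC and length correction gave 0 for cytochrome c and 3 higher in complex IV, and with a replicate block 0 and 4, at 1449 of all genes called. DESeq2 called 1535 of all genes, against 2324. Limma-voom and edgeR without robust estimation each called 11 ATP synthase genes higher, against 7. With library size alone complex IV had 5 higher, members 15, and 32.9% of all calls were higher, against 51.4%. Leaving out 1 library gave 1029 to 3077 of all genes called, 6 to 27 members higher, 0 to 1 for cytochrome c, 1 to 6 in complex III, 2 to 8 in complex IV and 2 to 12 in the ATP synthase. The remaining settings kept each of these counts within 1.5 times, and no direction of a named gene was reversed where it was called. Over all settings, 900 values kept their side of the threshold, 108 lost a call and 14 gained one; the causes were not tested. By correlation, same-numbered libraries did not deviate together (-0.21, -0.05 and -0.05), so numbers were not taken to pair them. The members, though, kept 1 order in both groups. Their median deviation from the group mean was 0.089, -0.004 and -0.080 in control replicates 1, 2 and 3. In knockdown replicates 1, 2 and 3 it was 0.035, 0.002 and -0.042. Replicate 1 was the highest control for 15 of the 19 called members and the highest knockdown library for 11. The source of this shared order was not tested. The replicate block gave 2001 of all genes and 22 members higher, all 19 among them. With 3 libraries a group and controls that spread widely, rises of about the size seen here lie near what can be called, and a gene not called is not shown to be level.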
